A study of Homo sapiens with 16 samples.

Results

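On human chromosome 19, 2392 of 3988 regions bound by the repressor ZBTB7A in wild-type (WT) HUDEP-2 cells had no overlapping region in the list from cells with a 195C>G γ-globin promoter, and 1596 had one. The first set is called missing here and the second kept. Members were the unique chromosome 19 regions of the WT list, which holds 36435 regions on all chromosomes, that no 195C>G region overlapped by at least 1 bp. Both lists therefore chose the members, so their number and WT signals are a description. Over all chromosomes 45.7% of WT regions had no 195C>G overlap. The 195C>G list is the shorter one, with 18784 regions on all chromosomes, so a missing region is one absent from that list. Each of the 2 lists comes from 1 ChIP library set against 1 control library, so no value below has an error between replicates and no difference between the cell lines has a p-value.

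ZBTB7A binding was mapped by ChIP-seq, in which DNA crosslinked to a protein is pulled down with an antibody and sequenced. HUDEP-2 cells are an immortalised erythroid line derived from human cord blood, and both HUDEP-2 lines measured for ZBTB7A carry a deletion labelled ΔGγ, Gγ being the globin of the gene HBG2. All HUDEP-2 cells were grown with stem cell factor, erythropoietin, dexamethasone and doxycycline. They differ by label in the remaining γ-globin promoter, WT or 195C>G, and whether either line is a single clone is not stated in the labels. ZBTB7A was also measured in K562, an erythroleukaemia line, with 4 ChIP and 4 control libraries pooled into 1 list. BCL11A was measured in HUDEP-2 cells that express a V5-tagged BCL11A-ER fusion, induced for 24 h with 4-hydroxytamoxifen at 1e-07 M, with 2 ChIP and 2 control libraries pooled into 1 list. Of the 16 libraries 8 are ChIP and 8 control, and the controls are titled input while their antibody label is IgG. Read depth is unknown, and no expression was measured with which to check the labelled cell types.

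ZBTB7A, also called LRF, is a zinc-finger transcription factor that recruits corepressors, among them the NuRD complex, and represses the fetal γ-globin genes in adult erythroid cells. BCL11A is the other main repressor of these genes. The 195C>G variant is known to weaken ZBTB7A binding at its site in the γ-globin promoter, which lies on chromosome 11. Chromosome 19 is the most gene-dense human chromosome and holds large clusters of KRAB zinc-finger (ZNF) genes beside many housekeeping genes. The gene of ZBTB7A itself lies on its short arm.

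The sequences below are those upstream of the missing and kept promoters of best WT rank for which the 250 bases before the RefSeq start held the WT summit and no base of an exon in the deposited annotation. Better-ranked promoters whose windows touch an annotated exon, such as those of CYP2S1 and S1PR4, were passed over. G and C made up 63.6 to 74.0% of the missing and 74.0 to 76.0% of the kept examples. They are not the best-ranked promoters overall. They are reference sequences (RefSeq, GRCh38.p14), printed 5′ to 3′ on the strand of the gene, with GACCC, or GGGTC on the opposite strand, in capitals. EEF2 (chr19:3985464-3985713, minus strand) encodes translation elongation factor 2 and was missing, with a WT rank of 1844 and the summit at base 59. SLC39A3 (chr19:2740077-2740326, minus strand), a zinc transporter gene, was missing at rank 2854 with the summit at base 106. PRKACA (chr19:14117763-14118012, minus strand), the gene of a catalytic subunit of protein kinase A, was missing at rank 3159 with the summit at base 169. PDE4A (chr19:10416523-10416772, plus strand), a phosphodiesterase gene, was kept, at rank 155 with the summit at base 109. MFSD12 (chr19:3557587-3557836, minus strand), a lysosomal transporter gene, was kept at rank 235 with the summit at base 61. The WT region of EEF2 was overlapped by neither other list, that of SLC39A3 by K562, those of PRKACA and PDE4A by K562 and BCL11A, and that of MFSD12 by BCL11A.
EEF2, missing: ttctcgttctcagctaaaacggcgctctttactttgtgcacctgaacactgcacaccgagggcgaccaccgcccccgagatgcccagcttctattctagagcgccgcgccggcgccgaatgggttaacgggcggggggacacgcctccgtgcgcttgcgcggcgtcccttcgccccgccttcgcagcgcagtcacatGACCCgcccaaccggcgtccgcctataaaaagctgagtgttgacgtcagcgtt
SLC39A3, missing: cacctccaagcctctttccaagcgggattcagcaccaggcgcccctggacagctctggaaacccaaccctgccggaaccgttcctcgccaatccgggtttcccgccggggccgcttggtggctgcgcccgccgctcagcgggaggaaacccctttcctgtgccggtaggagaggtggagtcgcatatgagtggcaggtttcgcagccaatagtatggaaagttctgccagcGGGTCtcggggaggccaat
PRKACA, missing: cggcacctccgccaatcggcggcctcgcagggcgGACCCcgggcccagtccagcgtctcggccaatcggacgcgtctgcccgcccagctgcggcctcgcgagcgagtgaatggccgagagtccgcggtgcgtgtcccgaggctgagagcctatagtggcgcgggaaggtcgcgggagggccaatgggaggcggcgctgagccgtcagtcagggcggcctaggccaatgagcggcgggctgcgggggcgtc
PDE4A, kept: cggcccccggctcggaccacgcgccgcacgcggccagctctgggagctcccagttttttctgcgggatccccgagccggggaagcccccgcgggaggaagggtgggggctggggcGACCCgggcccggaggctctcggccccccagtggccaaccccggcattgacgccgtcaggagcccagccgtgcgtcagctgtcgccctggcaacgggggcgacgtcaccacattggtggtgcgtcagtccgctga
MFSD12, kept: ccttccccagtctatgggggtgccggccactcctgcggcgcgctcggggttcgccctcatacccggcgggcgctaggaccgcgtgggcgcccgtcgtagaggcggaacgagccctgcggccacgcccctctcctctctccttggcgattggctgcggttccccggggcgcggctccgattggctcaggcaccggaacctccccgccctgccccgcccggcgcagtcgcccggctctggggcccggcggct

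The 3 missing promoters printed above held 1 copy of GACCC each, lying 141, 128 and 132 bases from the summit. In the kept PDE4A promoter 1 copy lay 9 bases from the summit, and the kept MFSD12 promoter held none. Nothing is drawn from these 5 examples: earlier selections, not limited to windows free of exons, gave other promoters, and in one of them the kept examples held more copies than the missing ones. GACCC was marked only after the motifs first tried, CCTTCCC and CCGGAA, were not found in the examples then selected. Among the promoters printed here, CCTTCCC on either strand lies in those of PRKACA and MFSD12, and CCGGAA in those of SLC39A3 and MFSD12. Both motifs are left unmarked there. GACCC was chosen from a scan of short words near WT summits of all chromosomes. Its shares are therefore a description, and 6 motifs were searched in all. In windows from 250 bases before to 50 after the start, GACCC on either strand was found in 56.7% of 358 promoters of missing genes (95% exact interval 51.4 to 61.9%) and in 65.8% of 345 promoters of kept genes (60.5 to 70.8%). The table held sequences for 358 of 420 missing and 345 of 399 kept genes. GACCC was present in 47.2% of all 27305 RefSeq promoters, and in 59.9% of the 1510 on chromosome 19. It was also present in 58.1% of the 449 matched promoters of chromosome 19 protein-coding genes without a WT region, above the share of missing promoters. Among genes in the strongest 20% of the WT list, the motif was found in 50.9% of 108 missing and 65.3% of 291 kept promoters. Where the WT summit itself lay in the window, 64.0% of 86 missing and 77.6% of 98 kept promoters held GACCC, and 3 or more copies were found in 5.81% and 23.5%. That gap was smaller over all matched genes, with 7.82% of missing and 11.9% of kept promoters, and in the strongest 20% of the list, with 7.41% and 11.3%. Of chromosome 19 promoters 9.80% held 3 or more copies, and of those of protein-coding genes without a WT region 8.69%.

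The core of the site of ETS factors, CCGGAA on either strand, showed the other order. It was found in 32.7% of missing and 26.4% of kept promoters (intervals 27.8 to 37.8% and 21.8 to 31.4%). Among genes in the strongest 20% of the list the shares were 42.6% (33.1 to 52.5%) and 27.1% (22.1 to 32.6%). Of all promoters 17.6% held it, and of those on chromosome 19 26.9%, near the share of kept promoters. Where the summit lay in the window the order was not seen, with 33.7% of missing and 37.8% of kept promoters. The C-rich motif CCTTCCC was found in 15.1% of missing and 18.8% of kept promoters, against 15.0% of all and 17.0% of chromosome 19 promoters. Among genes in the strongest 20% of the list its shares were 15.7% and 16.5%. In the rest it was found in 14.8% of 250 missing (10.6 to 19.8%) and 31.5% of 54 kept promoters (19.5 to 45.6%). The GATA core AGATAA was found in 4.47% of missing and 4.93% of kept promoters, against 10.5% of all and 5.63% of chromosome 19 promoters. CACCC boxes, to which KLF factors bind, were found in 67.3% of missing and 65.5% of kept promoters, against 58.9% of all and 66.6% of those on chromosome 19. TGACCA, a BCL11A motif, was found in 10.1% and 9.86%, against 10.98% of all and 11.8% of those on chromosome 19. All motifs were searched on both strands, and GACCC shares its letters GACC with TGACCA and ACCC with CACCC. A match describes the sequence, not a bound site. A ratio of observed to expected CpG above 0.6 was found for 80.2% of missing and 78.6% of kept promoters, against 39.9% of the 449 matched chromosome 19 genes without a WT promoter region.

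The strongest missing region of all lay between genes on the long arm, from 38786999 to 38787458, -1985 bp from the start of LGALS7B, a galectin gene. Its WT signal, the value the authors' peak caller SPP gave the region, was 161 and its rank 199. The next, at rank 301 with a signal of 145, lay in an intron of UHRF1, which encodes a factor of DNA methylation maintenance (4915063 to 4915461). The others of the 5 best-ranked missing regions outside promoters also lay in introns, of CCDC94 (rank 551), ZNF653 (rank 680) and CELF5 (rank 948). UHRF1 and ZNF653 had a 195C>G region 2770 and 2547 bp away, whereas the nearest one to the CELF5 region was 80798 bp away. The regions of CCDC94 and CELF5 were overlapped in K562, that of ZNF653 by BCL11A, and those near LGALS7B and in UHRF1 by neither.

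Missing regions had WT signals from 15.0 to 161, with a median of 22.7 and quartiles of 18.0 and 32.5. Kept regions ran from 15.0 to 285, with a median of 45.9 and quartiles of 28.7 and 76.8. None of the 50 strongest chromosome 19 regions was missing. Among the 100 strongest 3 were missing, among the 500 strongest 53 and among the 1000 strongest 232. With regions of all chromosomes divided into 10 deciles of WT signal, 14.8% of 640 chromosome 19 regions in the strongest decile were missing (12.2 to 17.8%), against 1.65% of 2853 elsewhere (1.21 to 2.18%; chromosome 11 was left out of such comparisons). In the third decile the shares were 51.1% and 21.5%, in the fifth 72.5% and 42.1%, and in the weakest 86.6% and 75.3%. Chromosome 19 lay above the other chromosomes in 10 of 10 deciles, by 11.3 to 30.3 percentage points.

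**Figure D1:**
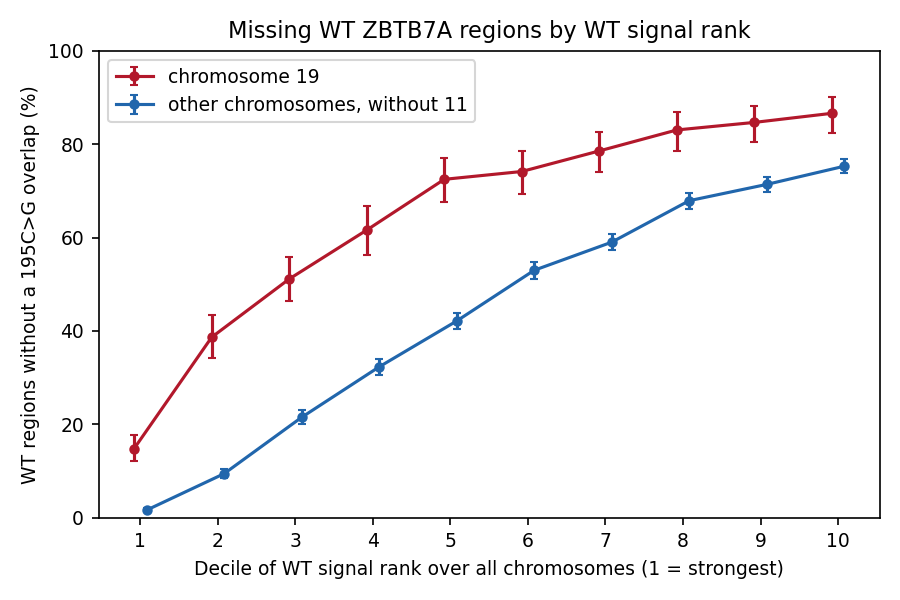
Share of WT ZBTB7A regions without a 195C>G overlap (y axis, percent) by decile of WT signal rank (x axis, 1 the strongest), for chromosome 19 and for the other chromosomes without chromosome 11; bars are exact 95% intervals of counting error. Chromosome 19 runs from 14.8% in the strongest to 86.6% in the weakest decile and the other chromosomes from 1.65% to 75.3%.

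Missing regions were spread along both arms. The arms were divided at the widest stretch of chromosome 19 without an annotated gene, 3.63 Mb long (24163448 to 27790492), in which no WT region lay. On the short arm 1328 of 2289 regions were missing (58.0%, 56.0 to 60.0%) and on the long arm 1064 of 1699 (62.6%, 60.3 to 64.9%). The difference of the arms was small beside that from other chromosomes, where 43.9% of 32447 regions were missing. In 1 Mb bins with at least 20 WT regions, the missing share on chromosome 19 ran from 47.4% to 87.0% over 42 bins, with a median of 61.2%. All 42 lay above the median of 41.7% over 551 such bins on other chromosomes, whose middle 50% ran from 33.3 to 50.0%. On the short arm 19 of 20 bins and on the long arm 21 of 22 lay above 50%, against 114 of the 551 elsewhere.

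**Figure D2:**
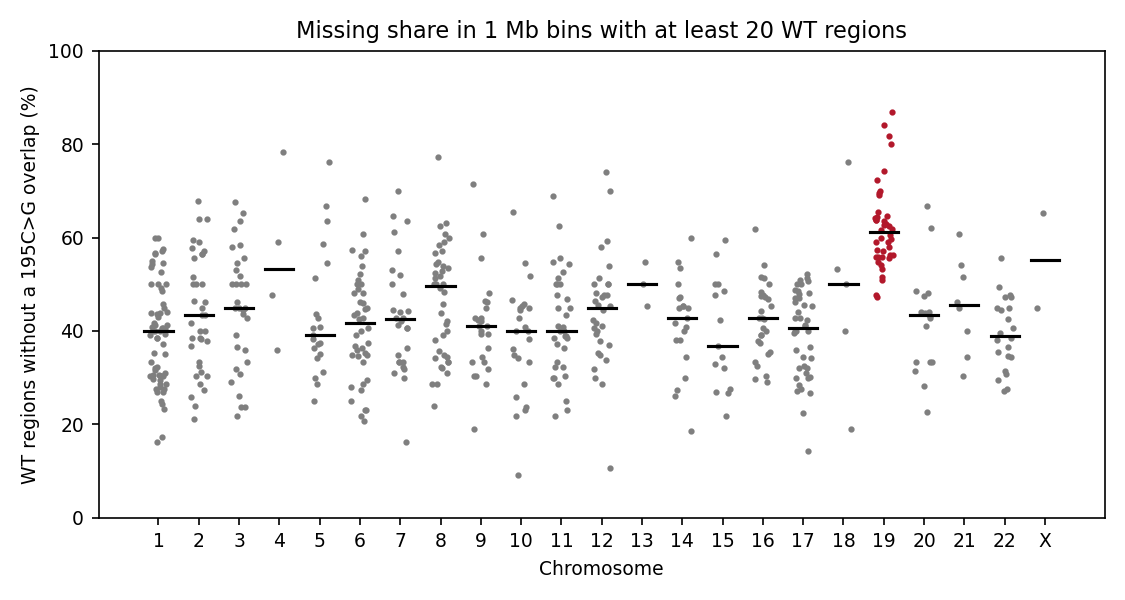
Each point is a 1 Mb bin with at least 20 WT regions, placed by the share of its WT regions without a 195C>G overlap (y axis, percent) for each chromosome (x axis); black lines are medians and chromosome 19 is red. The 42 bins of chromosome 19 lie between 47.4% and 87.0%, all above the median of 41.7% over the other bins.

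The 3 highest bins with at least 20 regions were all on the long arm. From 56000001 to 57000000, 20 of 23 regions were missing, from 57000001 to 58000000 21 of 25, and from 50000001 to 51000000 49 of 60. The first and second hold part of a ZNF cluster. The lowest was the bin from 33000001 to 34000000, with 18 of 38 missing. In the bin from 21000001 to 22000000 on the short arm, below the minimum of 20 regions, 2 of 10 were missing. Among the other chromosomes the missing share by chromosome ran from 40.2% on chromosome 22 to 50.2% on chromosome 4, with 57.2% on X and 68.4% of only 19 regions on Y. The deciles of WT rank of the other chromosomes gave 38.9% missing for chromosome 19, 21.1 percentage points below its share, and 50.8% for X, 6.45 points below. By WT rank alone X regions were thus among the weaker and those of chromosome 19 among the stronger.

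Regions that are kept on chromosome 19 also stood differently in the 2 lists. Over 14577 regions paired 1 to 1 between both lists, each was placed by rank within that same set, from 0% (strongest) to 100% (weakest). The 1077 chromosome 19 pairs had a median place of 24.6% by WT signal and 43.6% by 195C>G signal. On the other chromosomes together the medians were 51.9% and 50.4%. Of the chromosome 19 pairs 76.7% had a weaker place in 195C>G, against 48.0% elsewhere. On every other chromosome but Y, which had 4 pairs, this share lay between 42.2% and 52.0%. This compares 2 libraries, from the same lists that chose the members.

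Promoter regions, with the summit within 1 kb of the start of a protein-coding transcript, made up 31.4% of missing regions (29.5 to 33.3%) and 41.2% of kept ones (38.8 to 43.7%). The background over all WT regions was 36.4%. The difference of -9.87 percentage points (-12.9 to -6.83) on chromosome 19 lay beside -12.6 on the other chromosomes. In the strongest decile 63.2% of missing and 47.3% of kept chromosome 19 regions were at promoters, and the share was the lower for missing regions in 5 of 10 deciles. With the stronger 50% of the WT list the difference was -1.49 points (-5.61 to 2.65). Of missing summits 50.4% lay in introns and 28.5% between genes, against 42.7% and 38.5% of kept ones. Summits in 3′ UTRs were missing in 128 of 182 cases (70.3%), those in coding exons in 208 of 333 (62.5%), those in 5′ UTRs in 140 of 248 (56.5%) and intergenic ones in 681 of 1295 (52.6%). Promoter regions that serve genes on both strands were missing in 87 of 131 cases (66.4%, 57.6 to 74.4%), and those of a single gene in 658 of 1271 (51.8%, 49.0 to 54.5%).

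By gene, 819 of 1388 protein-coding genes of chromosome 19 had a WT promoter region, and for 420 of them all such regions were missing (51.3%). Over all chromosomes 37.2% of WT promoter-bound genes were so. For 4 of the 420, PPP6R1, CIRBP, CSNK1G2 and HCN2, a 195C>G region lay within 1 kb of the start without overlapping the WT one. The missing share rose as the WT rank of the best promoter region fell, from 124 of 456 genes in the strongest 20% of the list (27.2%) to 44 of 45 in the weakest 20% (97.8%).

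The missing promoter of best WT rank was that of ZNF582, a KRAB zinc-finger gene, at rank 398 (56392967 to 56393410, summit 382 bp into the gene), and this promoter stood at rank 20 in the order of the K562 list. ATP5SL, now named DMAC2, an assembly factor of a mitochondrial complex, stood at WT rank 592 and AP1M1, a clathrin adaptor gene, at rank 655. The promoters of CYP2S1, a cytochrome P450 gene (rank 820, signal 110), and DMWD, a WD-repeat gene (rank 1006, signal 103), followed. GYS1, which encodes muscle glycogen synthase, and RUVBL2, which encodes an ATPase of chromatin remodelling complexes, shared the region of rank 1013. ZNF554 stood at rank 1105 and RAB11B, a gene of vesicle recycling, at rank 1150. LSM7, a gene of RNA splicing and decay, and SPPL2B, a protease gene, shared the region of rank 1181. QTRT1, which encodes a tRNA-modifying enzyme, stood at rank 1420. Of these 12 genes, 11 had a region in K562 within 1 kb of the start and 4 had one in the BCL11A list, with genes that share a region counted separately. Among all 420 missing genes the shares were 41.2% and 29.5%. The 12 all lie in the strongest decile of WT signal, where 61.1% of missing regions were overlapped in K562 and 34.7% by BCL11A.

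The best kept promoters were stronger in WT. TPGS1 stood at rank 10 in WT (signal 285) and rank 38 in 195C>G (signal 234), and ANKLE1, a nuclease gene, at ranks 17 and 100. S1PR4, a receptor gene of blood cells, stood at ranks 20 and 400, LYL1 at ranks 55 and 430, and DEDD2, a gene of cell death, at ranks 62 and 380. TPGS1 was a mixed case, with 2 of its 3 WT promoter regions missing. Signals and ranks belong to each list alone, and the lists differ in length, with 36435 WT and 18784 195C>G regions.

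Families of chromosome 19 genes differed in how often their WT promoter regions were missing. Lists were made by symbol or by role, with earlier results known, and are read against the 51.3% of all WT-bound chromosome 19 genes. Of 257 ZNF, ZFP, ZSCAN and ZIM genes 117 had a WT promoter region and 80 of those were missing (68.4%, 59.1 to 76.7%). Within the strongest 20% of the WT list 18 of 47 such genes were missing (38.3%), and of other genes 106 of 409 (25.9%). In the next 20% the counts were 26 of 32 (81.3%) and 79 of 118 (66.9%). ZNF genes of both arms were similar, with 17 of 26 missing on the short and 63 of 91 on the long arm. The best kept members were ZNF526, at rank 62 with the region it shares with DEDD2, and ZNF787, at rank 214. Of the 80 missing ZNF genes 29 had a promoter region in K562 and 27 in the BCL11A list, against 173 (41.2%) and 124 (29.5%) of all 420 missing genes. Chosen after their values were seen, ZSCAN22 and ZNF221 were at ranks 58 and 115 of the BCL11A list, with scores of 568 and 406, and their WT ranks were 15579 and 9244.

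Ribosomal protein genes were missing in 8 of 10 cases (80.0%, 44.4 to 97.5%), out of 12 on the chromosome. RPS28 stood at WT rank 2363 and RPL18 at 4937. RPL13A, RPS15 and RPL36, named here after their values were seen, were missing at ranks 5240, 19780 and 22604. The kept members were RPL28 (rank 296 in WT, 1454 in 195C>G) and RPS19 (1023 and 2365). Of the 8 missing genes 1 had a promoter region in K562 and 5 had one for BCL11A, the best that of RPL13A at rank 95 with a score of 444. Among all 420 missing genes the shares were 41.2% for K562 and 29.5% for BCL11A.

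Erythroid and red cell genes were mostly kept, with 2 of 18 missing (11.1%, 1.38 to 34.7%). Of the 18, 16 lay in the strongest 20% of the WT list. There 1 of the 16 was missing, against 27.2% of all 456 WT-bound chromosome 19 genes in that 20%. FUT2, a fucosyltransferase gene of secretors, was missing, at rank 31272 with a signal of 16.9. KLF1, the erythroid activator gene, stood at rank 153 in WT and 253 in 195C>G, with signals of 173 and 156. LYL1, a blood transcription factor gene, had signals of 215 and 135, and ICAM4, a blood group gene, 160 and 116. CALR, the calreticulin gene, had 82.6 and 148. EPOR, the erythropoietin receptor gene, had 44.0 and 50.9, and FUT1, which makes the H antigen, 72.7 and 103. The first value of each pair belongs to the WT and the second to the 195C>G list, and the scales are each list's own. The EPOR promoter also stood at rank 22 of the BCL11A list, with a score of 951. ZBTB7A had 5 promoter regions in WT, of which 1 was missing (best rank 670). The other kept genes of the list were HIF3A, PRDX2, GATAD2A, MBD3, NFIX, SLC44A2, GPX4, BSG and DNMT1, at WT ranks from 587 to 4851. For GATAD2A, a NuRD subunit gene, the best WT region (rank 1110) was missing and a weaker one was kept.

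All 5 KLF and JUN genes were kept, with JUNB at rank 2557, and JUND, KLF16 and KLF2, named after their values were seen, at 2568, 4490 and 6726. All 5 lay in the strongest rank group used above for ZNF genes, where 124 of 456 WT-bound chromosome 19 genes were missing (27.2%). Whether these 5 differ from other genes of like rank was not tested. All 3 WT-bound ICAM genes were kept, and of 4 Mediator genes 1 was missing, MED16 at rank 6842. In the same rank group lay 2 of the ICAM and 3 of the Mediator genes, MED16 among them. MED29 and MED26 were kept, at ranks 777 and 1020, but the best WT region of MED26 was itself missing. Among cytochrome genes of the CYP2 and CYP4F groups 3 of 4 were missing, CYP2S1 and CYP4F3 the strongest, and CYP4F12 was kept. APOE and APOC2 were missing at ranks 3278 and 28920, while APOC1 was kept at rank 631. Among genes of other cell types, 1 of 3 leukocyte markers was missing (CD37, rank 15265) and 2 kept (CD79A and SPIB), and 4 of 6 hepatocyte and neuron markers were missing, led by APOE and SYT3 (rank 8441), with APOC1 and GRIN2D kept. SIGLEC6 and KLK7, the only WT-bound genes of their families, were missing at ranks 30867 and 20206. The LILR and KIR receptors, CEACAM and PSG genes, olfactory receptors, NLRP genes and formyl peptide receptors had no WT promoter region. Counts under 10 leave intervals that reach across most of the scale.

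The K562 and BCL11A lists did not take part in the choice of members. A ZBTB7A region of the K562 list overlapped 22.7% of missing regions (21.0 to 24.4%) and 61.2% of kept ones (58.8 to 63.6%), a difference of -38.5 points (-41.4 to -35.5). The background over all WT regions without chromosome 11 was 35.9%. By BCL11A 18.0% of missing (16.5 to 19.6%) and 42.3% of kept regions (39.9 to 44.8%) were overlapped, a difference of -24.3 points (-27.1 to -21.4), with a background of 25.0%. On the other chromosomes these differences were -30.0 and -16.5 points. Both lists held 5.31% of missing regions and neither held 64.6%, against 26.4% and 22.9% of kept regions. Regions are not replicates, so the intervals cover counting error only.

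Missing regions were the less often overlapped in 10 of 10 deciles of WT rank for K562 and in 10 of 10 for BCL11A. In the strongest decile 61.1% of the 95 missing regions were overlapped in K562 against 76.9% of the 545 kept, and by BCL11A 34.7% against 49.4%. In the weakest decile the K562 shares were 10.1% and 44.2%, and the BCL11A shares 9.35% and 30.2%. Set beside missing regions of other chromosomes, those of chromosome 19 had the higher K562 share in 4 deciles, among them the strongest 3 (61.1 against 48.9%, 51.1 against 42.7% and 41.3 against 34.7%), and the higher BCL11A share in 4. At promoters 37.3% of missing and 70.7% of kept regions were overlapped in K562, and outside promoters 16.02% and 54.6%. By BCL11A the shares were 25.7% and 40.6% at promoters and 14.5% and 43.5% outside. Both arms gave the same order, with K562 shares of 22.7% for missing regions on each and 58.1% and 66.0% for kept regions on the short and long arm.

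**Figure D3:**
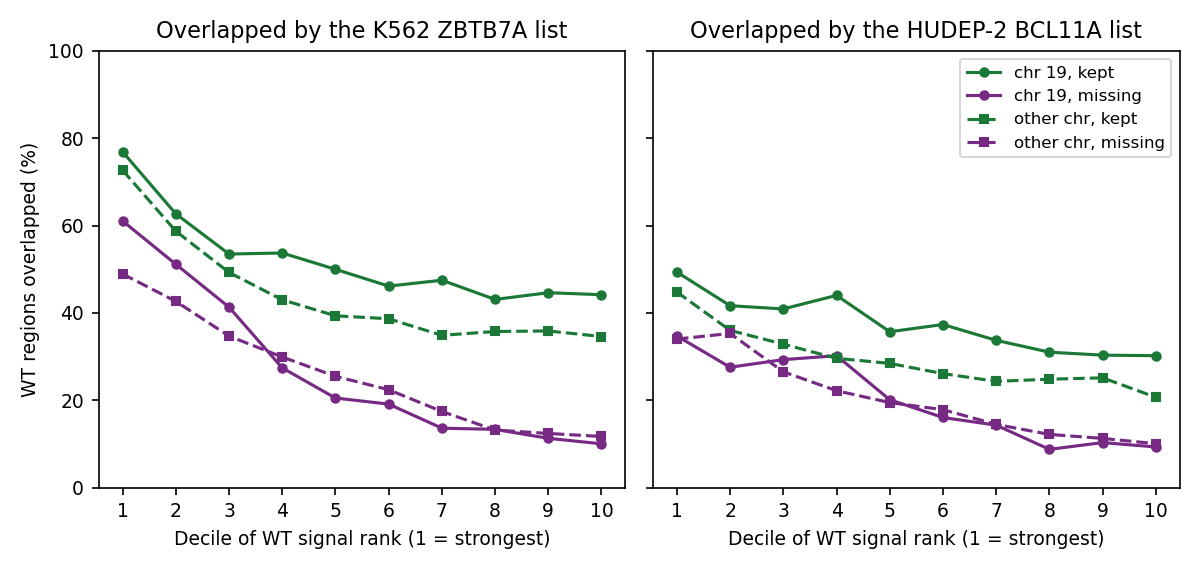
Share of WT regions overlapped by the K562 ZBTB7A list (left) and the BCL11A list (right; y axes, percent) by decile of WT signal rank (x axes, 1 the strongest), for missing (purple) and kept (green) regions of chromosome 19 (circles, solid) and of the other chromosomes without 11 (squares, dashed). Missing chromosome 19 regions fall from 61.1% to 10.1% for K562 and lie below kept ones in each decile of both panels.

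The missing regions of best WT rank held by both other lists were at promoters in 3 of 5 cases. They were DMWD (WT rank 1006, K562 rank 3502, BCL11A score 25.7), GATAD2A (1110, 4578, 115) and RAB11B (1150, 4510, 84.0). The 2 others lay in introns, of NFIC, which encodes a nuclear factor I protein (WT rank 1115, 3434942 to 3435107), and of MARCHF2, a ubiquitin ligase gene whose symbol the deposited annotation gives as Mar-02 (WT rank 1318, 8418105 to 8418393). The MARCHF2 region was the strongest of these for BCL11A, with rank 86 and a score of 465.

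Seen from the other lists, chromosome 19 stood apart by how much of them the WT list held. Of 1578 K562 regions on chromosome 19, 76.4% (74.3 to 78.5%) were overlapped in WT, against 61.0% of 14754 on the other chromosomes, and none of 21 other chromosomes had a higher share (45.0 to 73.5%). By the 195C>G list 47.1% (44.6 to 49.6%) were overlapped, against 46.1% elsewhere, and 10 of the 21 other chromosomes had a higher share. Of 1201 BCL11A regions on chromosome 19, 73.7% (71.1 to 76.2%) were overlapped in WT against 55.8% elsewhere, and 43.0% (40.1 to 45.8%) in 195C>G against 39.3%, with 3 of 21 other chromosomes higher. K562 regions found in WT and not in 195C>G made up 30.4% on chromosome 19 and 12.2 to 22.7% on the others, and for BCL11A 33.0% and 9.96 to 24.6%. With the K562 list cut by its order into 4 equal groups, the WT share was higher on chromosome 19 in all 4. The 195C>G share was higher there in the first group (69.8 against 65.6%) and lower in the other three. With the BCL11A list cut likewise, both the WT and the 195C>G share were higher on chromosome 19 in all 4 groups, the 195C>G share by the most in the second (45.0 against 40.7%) and by the least in the last (33.7 against 32.6%). The WT regions cover 2.05 Mb of chromosome 19 and the 195C>G regions 0.666 Mb. In the reverse direction 96.3% of 1319 chromosome 19 regions of the 195C>G list were overlapped in WT, against 88.8% elsewhere.

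Members lay at varied distances from the edge of the rule. The nearest 195C>G region was within 500 bp for 184 missing regions (7.69%), within 1 kb for 366 (15.3%) and over 10 kb away for 1119 (46.8%), with a median of 8746 bp. The closest miss, from 46860139 to 46860782 at rank 9821, had a 195C>G region 17 bp away. The smallest overlap of a kept region was 11 bp (1026697 to 1027047, rank 2567), and 35 kept regions (2.19%) were overlapped by at most 100 bp. With reciprocal overlap of at least 50% required, the missing share was 70.2%, so part of the kept regions rest on a partial overlap. Of the 3988 regions 1886 overlapped another WT region, so they make 2998 separate sites.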

How the data were processed

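The submitters' processing notes name Trimmomatic 0.3.2, Bowtie2 2.2.9, Bowtie, Picard, bedtools and hg38, without their roles. Per the names of the deposited files, WT and 195C>G regions were called with SPP in 1 library each, and the K562 and BCL11A lists are IDR-filtered over replicates. The authors deposited a signal and a −log10 false discovery rate per region for WT and 195C>G, a score for BCL11A, and no value for K562, whose order served as rank. The deposited annotation and both SPP lists use a modified chromosome 11, so chromosome 11 was left out of comparisons with the other lists. No read counts are given, so depth and precision beyond counting error are unknown.

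Identical regions were counted once, and only chromosomes 1 to 22, X and Y were used. Overlaps, summit positions and exact Clopper-Pearson 95% intervals (Newcombe intervals for differences) were computed with Python 3.11.15, pandas 2.3.3 and scipy 1.17.1; overlaps were checked against bedtools on simulated regions. Coordinates are hg38, 1-based. No test was run, since each arm is 1 library and regions are not replicates. Members, gene lists and naming rules were chosen with earlier results of these data known. Genes named are the 12 best-ranked missing and 5 best-ranked kept promoters, the 2 best of each family in each state, all WT-bound erythroid genes, and the 5 best missing regions outside promoters and in both other lists. After first results were seen, the marked motif was changed, the printed promoters were reselected (last to windows free of annotated exons), and the views by chromosome, list section, paired place, decile-based expectation and rank group were added. RefSeq promoters were matched by symbol or transcript accession. Overlap, list strength, merging and promoter window were varied. Some genes that the naming rule covers are not reported here.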

Additional observations from a re-analysis of the deposited data

How the results depend on the processing

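Values on chromosome 19 were recomputed under 6 alternatives, giving 32 comparisons, of which 13 stayed within the interval of the reported value and 19 left it. None of the differences between missing and kept regions turned its direction. The other comparisons are of shares, which have no direction to turn. The missing share (60.0% as reported) was 70.2% with reciprocal overlap of at least 50%, 55.4% when regions within 500 bp counted as overlapping, 43.3% in the stronger 50% of the WT list and 63.9% with overlapping WT regions merged. In that order the short arm gave 69.0, 52.8, 41.1 and 61.8%, and the long arm 71.8, 58.9, 46.4 and 66.8%. The promoter share of missing less that of kept regions was -1.49 points in the stronger 50% and -5.87 with a 500 bp promoter window. For overlap in K562 the difference was -25.6 points with reciprocal overlap and -28.9 in the stronger 50%. For BCL11A it was -12.1, -28.9 with the 500 bp allowance, and -17.3 in the stronger 50%. The ZNF share stayed within its interval in all 6. The cause of these shifts was not tested, and read depth is unknown for every list. No paired analysis was possible because WT and 195C>G have 1 library each and no result comes from a test.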

Other observations

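Of the 499 chromosome 19 genes with more than 1 WT promoter region, 120 had both missing and kept ones (24.0%). FUT1 had 4 WT regions within 1 kb of its start, of which 3 were missing, and the NFIX promoter, a nuclear factor I gene, had 4 of which 2 were. Of the 420 genes whose promoter regions were all missing, 173 (41.2%) had a promoter region in K562 and 124 (29.5%) one for BCL11A, against 317 (79.4%) and 220 (55.1%) of the 399 genes with a kept region.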
